A study of Mus musculus with 36 samples.

Results

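The loss of 1 *Pogz* allele was examined in the hippocampus, in 12 of the 36 RNA-seq libraries of the series: 6 from *Pogz* cKO+/- mice and 6 from control mice. The libraries were chosen by their labelled tissue and genotype, and 14157 of the 24421 genes in the table were tested, those above 1 CPM (reads scaled to the size of each library) in at least 6 of the 12 libraries. All animals were adult C57Bl/6 mice, 3 males and 3 females per genotype. cKO+/- mice were NesCre/+; Pogzfl/+, with 1 floxed and 1 wild-type allele and a *Cre* recombinase under the *Nestin* promoter, which is active in precursors of the central and peripheral nervous system. Controls were Pogzfl/fl mice without *Cre*, so both of their alleles were floxed and intact. The genotype, the presence of *Cre* and the number of floxed alleles therefore cannot be told apart in this comparison. Hippocampi of cKO-/- mice (NesCre/+; Pogzfl/fl) and the cerebella with the same cKO+/- and control sample numbers are used below for reference values and for 1 test between tissues. The cKO-/- hippocampi also entered alternative fits.

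POGZ is a zinc finger protein with a transposase-derived domain that binds the heterochromatin protein HP1 and takes part in gene silencing and chromosome segregation. Loss-of-function mutations of a single human *POGZ* copy cause a neurodevelopmental disorder with autistic features. The hippocampus consists of the dentate gyrus, whose granule neurons continue to be born in adults, and of the pyramidal fields CA1, CA2 and CA3.

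Counts on genes came to between 30389941 and 45544188 in control and between 23303484 and 41900988 in cKO+/- libraries, and sex-specific transcripts matched the labelled sex in 12 of 12. The library of control animal Sample_1129 stood apart. It held the cerebellar granule cell genes *Gabra6* at 49.7 CPM and *Cbln3* at 72 CPM, against at most 1.09 and 1.73 CPM in the other 11 libraries, and its summed level of 8 cerebellar markers was 455 CPM, against 147 to 184 CPM in the other controls and 153 to 176 CPM in cKO+/- mice. The summed level of 8 choroid plexus markers, mostly from *Ttr* (transthyretin), was 4955 CPM in control Sample_1129 and 2403 CPM in control Sample_1170, against 29.4 to 41.3 CPM in the other controls and 17.5 to 664 CPM in cKO+/- mice. Hippocampal excitatory neuron markers summed to between 6324 and 8682 CPM in controls and between 5583 and 6949 CPM in cKO+/- mice, with no library lacking them. Of the 6 cKO+/- animals, Sample_933, Sample_938 and Sample_1433 have sample names numbered outside the span from Sample_1120 to Sample_1219 that holds every control, and values within that span are given beside the main results.

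Between cKO+/- and control hippocampus 3 genes passed the test, which was 0.0212% of the genes tested (edgeR quasi-likelihood test with sex as a covariate, Benjamini-Hochberg adjusted p under 0.05). *Dach2* and *Snrpn* rose and *Pogz* fell. Fold changes were small across the table: the median absolute log2 fold change was 0.064, and 166 genes exceeded 1.5-fold in either direction. In 43 genes (0.304%) all 6 cKO+/- libraries lay above all controls, and in 30 genes (0.212%) all lay below.

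The targeted gene comes first. *Pogz* (chromosome 3, 94837567 to 94883567, + strand, GRCm38) lay at 89.5, 91.3 and 93.4 CPM (lowest, median, highest) in controls and at 74.4, 76.1 and 80.7 CPM in cKO+/- mice. The 2 groups did not overlap, and the spread within each was a few CPM. *Pogz* fell by 15.9% in cKO+/- hippocampus (log2 fold change -0.25 ± 0.033 SE, adjusted p = 0.0194 in edgeR, n = 6 and 6). An exact 2-sided permutation test of the group means gave p = 0.00216, the smallest value that 924 arrangements of the animals allow. In 5 cKO-/- hippocampi *Pogz* lay at 59.1 to 68.1 CPM, so the transcript was still counted when both alleles were floxed and *Cre* was present. The counts cover all exons of the gene, not only the deleted ones, and do not measure the share of alleles that was recombined. The adjusted p of *Pogz* rose above 0.05 with any 1 of the cKO+/- animals Sample_933, Sample_938 and Sample_1189 or of the controls Sample_1170, Sample_1190 and Sample_1192 left out, to at most 0.121 in edgeR, while the log2 fold change stayed between -0.27 and -0.24. With only the 3 cKO+/- animals numbered within the control span it was -0.24 ± 0.043 (adjusted p = 0.616 in edgeR).

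*Dach2* showed the largest rise. It encodes a dachshund family transcriptional cofactor that works with Eya proteins in development, and lies on the X chromosome (113297510 to 113836386, + strand). Controls held 0.596, 0.761 and 1.41 CPM (lowest, median, highest), and cKO+/- mice 3.36, 3.86 and 4.56 CPM. Every cKO+/- library was above every control, and the lowest of them was above the highest control by more than the range of the controls. The rise was 4.62-fold (log2 fold change 2.21 ± 0.19, adjusted p = 0.000295 in edgeR). These levels rest on 201 reads in the 6 controls together and 792 in the 6 cKO+/- libraries. *Dach2* was called under each setting tried and with each animal left out, and within the span of animal numbers it was 2.09 ± 0.21 (adjusted p = 0.0264 in edgeR). In 5 cKO-/- hippocampi it lay at 17 to 26 CPM, above all cKO+/- libraries. Reads were summed over the whole gene, so its transcripts and starts cannot be told apart here.

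*Snrpn* rose 2.54-fold in cKO+/- hippocampus (log2 fold change 1.35 ± 0.16, adjusted p = 0.00656 in edgeR). *Snrpn* is an imprinted gene, expressed from the paternal allele, that encodes a spliceosomal protein of neurons. Controls lay at 1.44, 2.66 and 3.49 CPM (lowest, median, highest) and cKO+/- mice at 6.06, 6.61 and 6.97 CPM, with no overlap and a narrower range in cKO+/- mice. In 5 cKO-/- hippocampi it lay at 9.3 to 11.8 CPM. In cKO-/- animal Sample_1160, which is kept out of these ranges, it lay at 5.32 CPM, below all cKO+/- libraries. The call held with each animal left out (adjusted p at most 0.0372 in edgeR). Within the span of animal numbers the log2 fold change was 1.32 ± 0.21 and the adjusted p 0.406 in edgeR, and with a covariate for animals outside the span the adjusted p was 0.1.

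The *Snrpn* value needs its gene model beside it. The deposited model of *Snrpn* (chromosome 7, 59982502 to 60140219, - strand) has 14 exonic blocks, and 10 of them, 1970 of its 2380 exonic bases, lie wholly within exons of *Snurf*, the gene of the same transcript that precedes the *Snrpn* reading frame. *Snurf* received 7 reads and *Snrpn* 1940 in the 12 libraries together. How reads on shared bases were treated is not given in the sources used here. Where such reads are given to neither gene, the *Snrpn* counts come from the 4 blocks outside *Snurf*, 410 bases in all, at 60071885 to 60071988, 60097530 to 60097608, 60132250 to 60132397 and 60140141 to 60140219. These are upstream exons, so the value cannot be read as the level of the main transcript of the locus. The windows at an upstream start near the last of these blocks (chr7:60140176-60140475), at an upstream start nearer to the main one (chr7:60047929-60048228) and at the start shared with *Snurf* (chr7:60005150-60005449) are shown, all from RefSeq, GRCm38.p6, - strand. The deposited model has no exonic block in the window nearer to the main start. The remaining upstream window (chr7:60450128-60450427), not shown, lies outside that model. In the upstream windows the capitals mark a run of 49 bases that is identical in all 3 upstream *Snrpn* windows. In the shared window they mark each CG.
Snrpn upstream: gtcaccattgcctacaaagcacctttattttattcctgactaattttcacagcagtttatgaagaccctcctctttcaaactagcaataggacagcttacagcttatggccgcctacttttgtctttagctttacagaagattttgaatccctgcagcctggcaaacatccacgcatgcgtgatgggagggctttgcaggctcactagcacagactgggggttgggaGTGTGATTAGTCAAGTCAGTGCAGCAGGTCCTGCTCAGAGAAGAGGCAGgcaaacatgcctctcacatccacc
Snrpn nearer upstream: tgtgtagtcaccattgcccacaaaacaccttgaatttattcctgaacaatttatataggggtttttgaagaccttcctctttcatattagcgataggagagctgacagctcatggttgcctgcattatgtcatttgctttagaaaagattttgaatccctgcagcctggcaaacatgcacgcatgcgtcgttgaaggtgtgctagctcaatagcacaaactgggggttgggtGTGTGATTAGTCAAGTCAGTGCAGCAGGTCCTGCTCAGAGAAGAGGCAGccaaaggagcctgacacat
Snrpn shared with Snurf: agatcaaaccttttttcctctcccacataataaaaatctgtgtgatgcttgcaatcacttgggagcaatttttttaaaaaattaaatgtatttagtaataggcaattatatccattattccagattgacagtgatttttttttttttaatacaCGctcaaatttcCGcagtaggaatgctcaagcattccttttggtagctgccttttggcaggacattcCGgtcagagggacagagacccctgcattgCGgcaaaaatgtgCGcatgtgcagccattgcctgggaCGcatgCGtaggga
The upstream windows hold 3 and 4 CG pairs and the shared one 7, against a median of 7 over all windows. Besides the 3 upstream *Snrpn* windows, 1 of the 32851 windows holds the run. The treatment of reads that match several places is likewise not given.

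**Figure D1:**
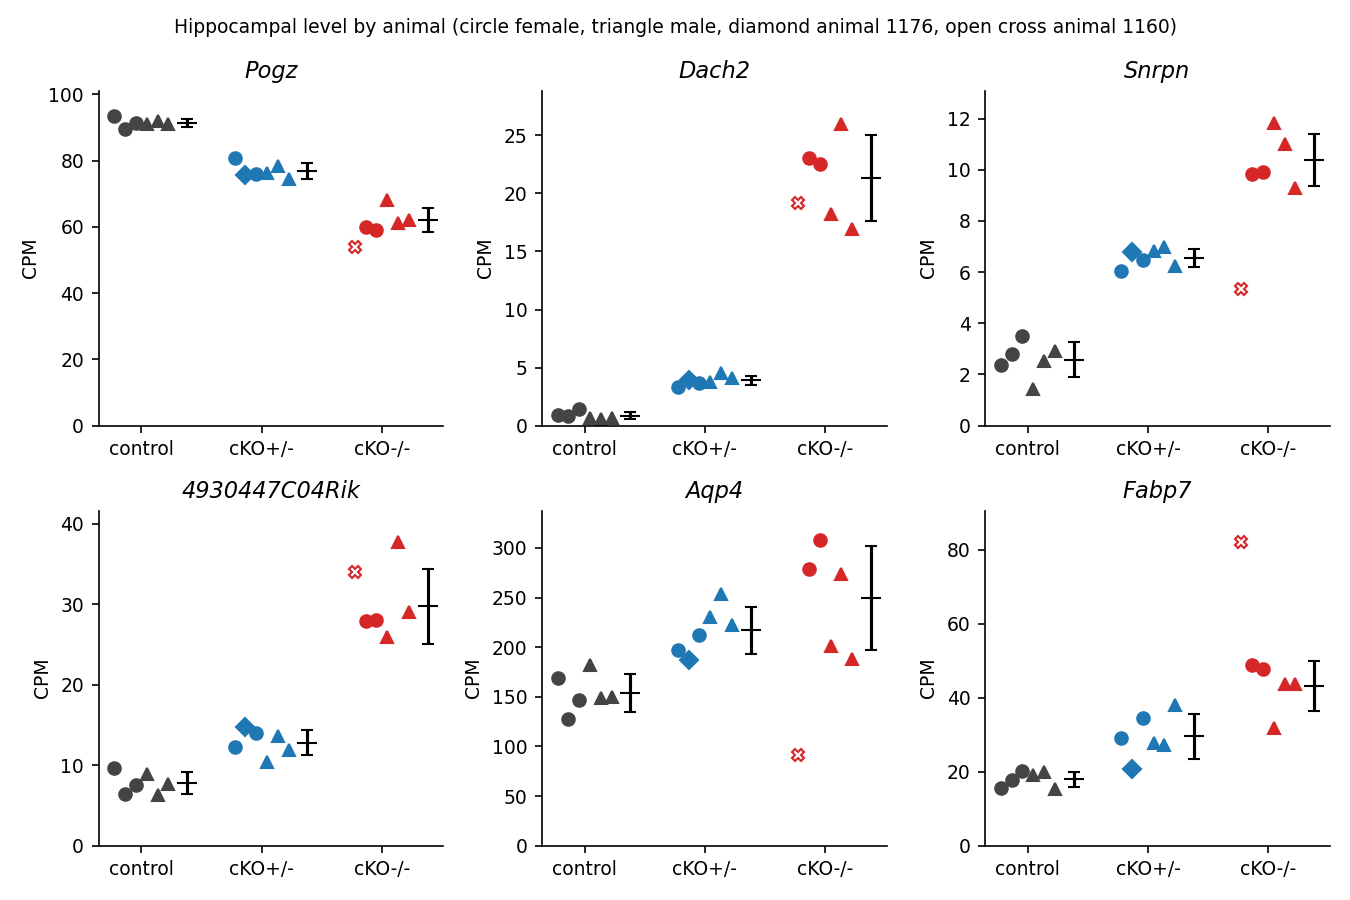
CPM in each hippocampus for 6 genes in control (grey), cKO+/- (blue) and cKO-/- mice (red), with the mean and SD beside each group, without cKO-/- animal Sample_1160 (open cross). Circles are females, triangles males, and the diamond is cKO+/- animal Sample_1176. *Pogz* lies lower and *Dach2* and *Snrpn* lie higher in all 6 cKO+/- libraries than in any control.

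*Akr1c13* and *Gm364*, which reached 1.68 to 3.13 and 5.07 to 7.51 CPM in 5 cKO-/- hippocampi, stayed below the level needed for the test. *Akr1c13*, an aldo-keto reductase gene, had 14 reads in the 6 controls and 36 in the 6 cKO+/- libraries, at 0 to 0.087 and 0.0794 to 0.294 CPM. In a fit of all genes with any count, its log2 fold change was 1.53 ± 0.49 with an adjusted p of 0.319 in edgeR. *Gm364* had 3 reads in each group, at most 1 per library, which is no more than a count of 0 allows, so no difference was detectable at this depth.

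The genes that followed in rank did not pass the test. *Aqp4*, the water channel of astrocyte endfeet, lay at 128 to 182 CPM in controls and at 187 to 253 CPM in cKO+/- mice, without overlap (log2 fold change 0.49 ± 0.075, adjusted p = 0.0572 in edgeR). *4930447C04Rik* (chromosome 12, 72881109 to 72917765, - strand), also named *Six6os1* and known for its part in chromosome synapsis in meiosis, lay at 6.36 to 9.7 CPM in controls and at 10.4 to 14.7 CPM in cKO+/- mice (0.72 ± 0.11, adjusted p = 0.0791 in edgeR). Both were called without control Sample_1129, at adjusted p = 0.0164 and 0.0394 in edgeR. They were also called without control Sample_1155, at adjusted p = 0.0463 for each, and without cKO+/- animal Sample_1176, at 0.012 and 0.0169 in edgeR. In 5 cKO-/- hippocampi *4930447C04Rik* lay at 25.9 to 37.7 CPM, above all cKO+/- libraries, while *Aqp4* at 188 to 308 CPM overlapped them. In cKO-/- animal Sample_1160, kept out of these ranges, *4930447C04Rik* lay at 34 CPM and *Aqp4* at 91.5 CPM, below all controls for *Aqp4*. *Ifitm1*, an interferon-induced membrane protein gene, lay at 0.742 to 1.39 and 1.97 to 2.65 CPM (0.86 ± 0.15, adjusted p = 0.0996 in edgeR). *Fabp7*, a fatty acid binding protein of radial glia and astrocytes, lay at 15.2 to 20.1 and 20.6 to 38 CPM (0.72 ± 0.13, adjusted p = 0.144 in edgeR). The lowest cKO+/- value of *Aqp4* and of *Fabp7* was that of animal Sample_1176.

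In the other direction no further gene passed. *Cacng5* (chromosome 11, 107874605 to 107915055, - strand), an auxiliary subunit of AMPA receptors, lay at 15 to 21.7 CPM in controls and at 6.93 to 13.9 CPM in cKO+/- mice (-0.75 ± 0.15, adjusted p = 0.154 in edgeR). *Plcl1*, a phospholipase C-like protein without enzyme activity, had the ranges 46.1 to 65.7 and 31.7 to 46 CPM, and *Stpg1*, a sperm-tail repeat protein gene, 4.65 to 6.48 and 2.49 to 4.45 CPM. These 3 did not overlap between groups. *Tmtc1*, which encodes a mannosyltransferase of the endoplasmic reticulum, and *Epha10*, an Eph receptor that lacks kinase activity, overlapped, at 71.7 to 94.3 against 60.9 to 72.2 CPM and at 64.1 to 83.2 against 49.2 to 65.3 CPM. The adjusted p of these 5 genes lay between 0.0996 and 0.157 in edgeR. *Tmtc1* shares 408 exonic bases with *4732416N19Rik* and *Epha10* 79 with *1700125G02Rik*, both on the opposite strand, and use of strand in counting is not given in the sources used here, so reads on those bases cannot be told apart.

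**Figure D2:**
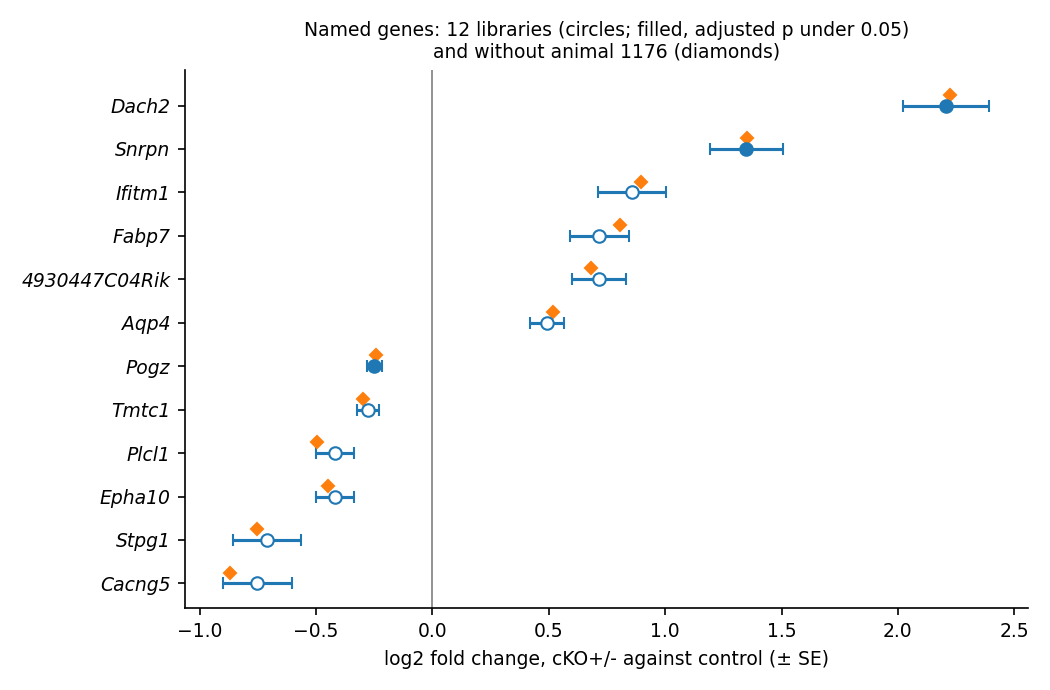
Log2 fold change of the named genes that were tested, cKO+/- against control, with SE from the fit of 12 libraries (circles, filled where the adjusted p is under 0.05), and the value without cKO+/- animal Sample_1176 (diamonds). *Dach2*, *Snrpn* and *Pogz* are the filled points, and leaving out Sample_1176 moves *Cacng5* from -0.75 to -0.87 and *Fabp7* from 0.72 to 0.80.

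One cKO+/- animal decided how many genes were called. Without the female Sample_1176, 385 genes (2.72% of those tested) passed the same test, 193 higher and 192 lower in the remaining 5 cKO+/- mice, whereas the fit without any other animal called between 2 and 7. The count was 7 without control Sample_1172 and 5 without control Sample_1129 or control Sample_1155. The 385 included *Dach2*, *Snrpn* and *Pogz*. In these 3, Sample_1176 lay within the range of the other cKO+/- mice, and it held 75.5 CPM of *Pogz*, 3.96 CPM of *Dach2* and 6.77 CPM of *Snrpn*. In 322 of the 385 genes (83.6%) its level was nearer to the control mean than to the mean of the other 5 cKO+/- mice, a share that choosing the genes by leaving out this animal favours. The median absolute log2 fold change of the 385 genes was 0.37, and 20 of them exceeded 2-fold. With 37669652 counts, this library was not shallow. Only 1 gene, *Dach2*, was called from the animals numbered within the control span, and DESeq2 called 128 genes on all 12 libraries, which included the 3.

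**Figure D3:**
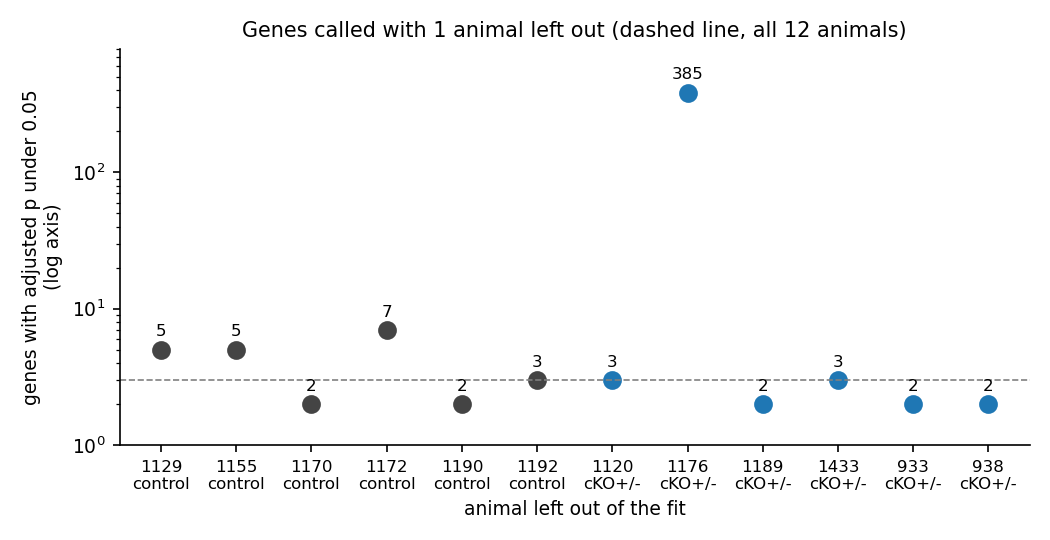
Number of genes with an adjusted p under 0.05 (log axis) when the animal named under each point is left out of the fit, for controls (grey) and cKO+/- mice (blue). The dashed line is the 3 genes called from all 12 animals; the count without cKO+/- animal Sample_1176 is 385, and the other counts lie between 2 and 7.

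Among the genes called without Sample_1176, the lower ones with the smallest p included *Iqgap2*, *Tanc1*, *Plcl1*, *Rasd1* and *Wipf3*. *Wipf3*, a regulator of actin assembly, lay at 680 to 953 CPM in controls, at 406 to 588 CPM in 5 cKO+/- mice and at 794 CPM in Sample_1176. *Tanc1*, a postsynaptic scaffold protein gene, lay at 199 to 270 CPM in controls, at 151 to 205 CPM in the 5, and at 236 CPM in Sample_1176. The higher ones included *Camk2d*, a calcium/calmodulin-dependent kinase gene, with 29.7 to 52.3 CPM in controls, 48.2 to 75.7 CPM in the 5 and 32.3 CPM in Sample_1176. *Bmp3*, a ligand of the TGF-beta superfamily, lay at 1.57 to 2.08 CPM in controls, at 3 to 3.93 CPM in the 5 and at 1.74 CPM in Sample_1176. In these 4 genes, picked after their values were seen, Sample_1176 lay within the range of the controls. Choosing genes by leaving out this animal favours that placing. It did not hold for every gene called: *Aqp4* and *Fabp7* lay above all controls in Sample_1176. *Mtss1l* lay there at 198 CPM, below the 203 to 236 CPM of the controls.

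Genes that mark the fields of the hippocampus were examined next. Of 22 such genes in the table, all tested, none passed the test on 12 libraries. Higher levels in 4 and lower levels in 10 were seen at an unadjusted p under 0.05, against 5.57% and 5.66% of all genes in the 2 directions, and the median log2 fold change was -0.21, against 0.00 over all genes tested. Without control Sample_1129 these counts were 3 and 9, without controls Sample_1129 and Sample_1170 they were 4 and 6, and within the span of animal numbers they were 3 and 3. In these fits 1410, 1475 and 668 of all 14157 genes were past that p in either direction. Without Sample_1176, 5 of the 22 were called: *Prox1*, *Dsp*, *Pdzd2* and *Cacng5* lower and *Dcn* higher, against 2.72% of all genes, 193 higher and 192 lower. Dentate gyrus members accounted for 3 of these. *Dsp* (desmoplakin), a marker of dentate granule cells, lay at 83.4, 132 and 191 CPM (lowest, median, highest) in controls and at 36.6, 65.3 and 110 CPM in cKO+/- mice, and the highest cKO+/- value was that of Sample_1176. *Prox1*, the transcription factor that specifies granule neurons, lay at 50.9, 80.8 and 110 CPM in controls and at 38.8, 61.1 and 70.5 CPM in cKO+/- mice, again highest in Sample_1176. *Pdzd2*, a PDZ domain protein gene, lay at 86.7 to 121 CPM in controls, at 48.2 to 85.6 CPM in 5 cKO+/- mice and at 96.3 CPM in Sample_1176. *C1ql2*, a secreted synaptic protein of mossy fibres, and *Calb1* (calbindin) overlapped widely, with log2 fold changes of -0.38 ± 0.17 and -0.07 ± 0.09. *Calb1* is also among the cerebellar markers, and control Sample_1129 held it at 204 CPM, against 134 to 146 CPM in the other controls. As the mean over these 5 genes, of which *Calb1* was added after its values were seen, each taken as a percentage of its control mean, cKO+/- libraries lay at 55, 69.5, 70.3, 73.2, 78.9 and 92.4%, the last being Sample_1176, and controls at 76.9, 83.7, 103, 103, 112 and 122%. In bulk tissue, fewer cells of a type and less RNA per cell cannot be told apart.

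Markers of CA2, the small field between CA1 and CA3, had lower values as well, none of which passed: *Map3k15* had a log2 fold change of -0.61 ± 0.21, *Rgs14* of -0.30 ± 0.13 and *Pcp4* of -0.22 ± 0.09, and *Cacng5* is described above. The CA1 genes did not share a direction. *Wfs1* lay lower (-0.43 ± 0.15), and *Mpped1* (0.26 ± 0.08) and *Fibcd1* (0.19 ± 0.08) lay higher. *Dcn* (decorin), a matrix proteoglycan found in ventral CA1 and in the meninges, lay at 6.95, 24.6 and 41.2 CPM in controls and at 32.3, 64.7 and 88.7 CPM in cKO+/- mice. The 5 cKO+/- mice other than Sample_1176 were above all controls. *Nov*, a secreted matricellular protein gene of the same region, lay at 68.7 to 151 and at 133 to 184 CPM. The 8 markers of meninges and fibroblasts, *Dcn* among them, summed to 70.7 to 373 CPM in controls, with control Sample_1129 the highest and the next at 214 CPM, and to 135 to 256 CPM in cKO+/- mice. The median log2 fold change of these 8 markers was 0.26, with 1 higher at an unadjusted p under 0.05. It was 0.61 with 4 higher without control Sample_1129, and 0.72 with 7 higher without controls Sample_1129 and Sample_1170, while within the span of animal numbers it was 0.06 with 1 higher. Of all genes tested, 5.57% were higher at that p in the fit of 12 libraries. In the other fits, in the same order, 1410, 1475 and 668 of 14157 genes were past it in either direction. The part of these 8 markers in the levels of *Dcn* and *Nov* was not tested.

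**Figure D4:**
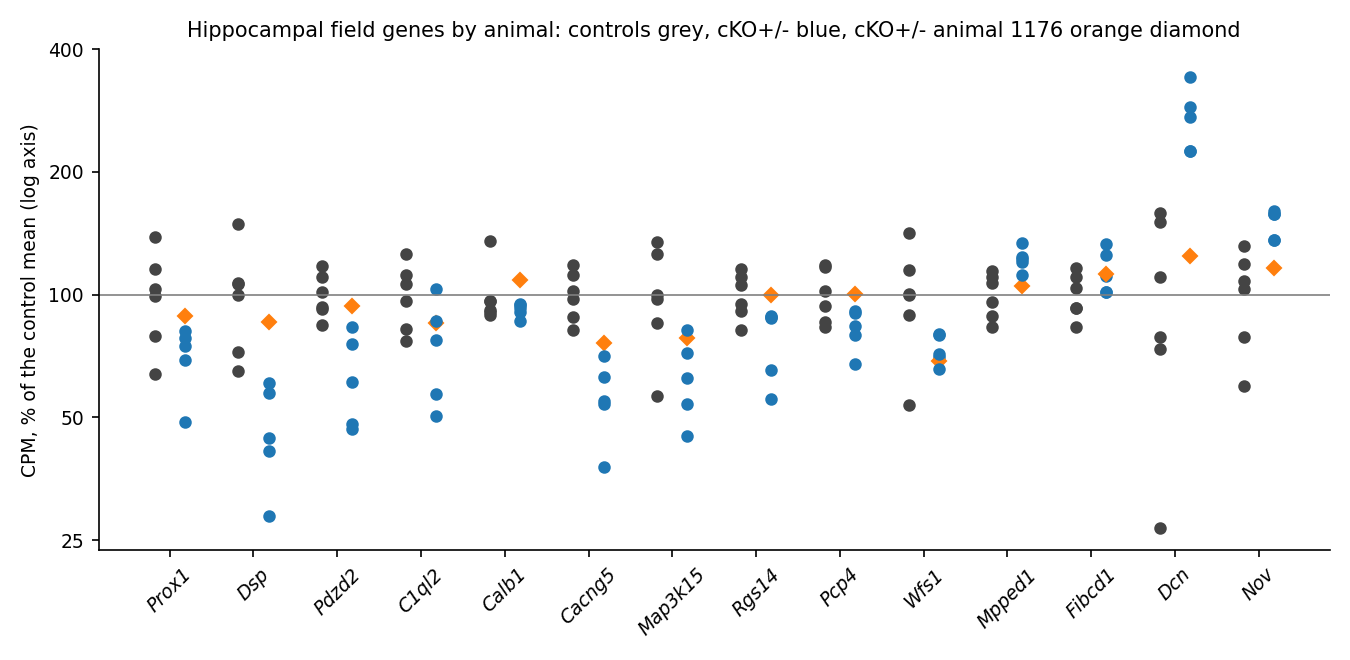
CPM of 14 hippocampal field genes in each animal as a percentage of the control mean (log axis), for controls (grey), cKO+/- mice (blue) and cKO+/- animal Sample_1176 (orange diamond). For *Dsp*, *Pdzd2* and *Dcn*, Sample_1176 lies among the controls and the other 5 cKO+/- animals lie to one side of all of them. These genes were called in the fit without Sample_1176, a choice that favours this placing.

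Imprinted genes, expressed from 1 parental allele, lay more often above than below 0. Of 34 such genes in the table, 31 were tested and *Snrpn* alone was called. At an unadjusted p under 0.05, 8 were higher, *Snrpn* included, and 0 lower, and 26 of the 31 log2 fold changes were positive, with a median of 0.13. Over all genes tested, 5.57% were higher and 5.66% lower at that p, and 7062 of the 14157 log2 fold changes were positive. The others of the 8 were *Usp29* (0.23 ± 0.06), *Dlk1* (1.33 ± 0.49), *Nnat* (0.49 ± 0.18), *Magel2* (0.91 ± 0.34), *Meg3* (0.36 ± 0.15), *Zdbf2* (0.29 ± 0.12) and *Rian* (0.26 ± 0.11), with adjusted p between 0.268 and 0.416 in edgeR. *Dlk1*, *Meg3* and *Rian* belong to a single imprinted cluster and *Magel2* is a neighbour of *Snrpn*, so they are not separate loci. *Dlk1*, an inhibitory Notch ligand, lay at 0.287 to 9.16 CPM in controls and at 4.95 to 16.2 CPM in cKO+/- mice. The controls alone spanned a wide range for several of these genes. Leaving *Snrpn* out, the median log2 ratio of the remaining 30 genes to their control mean was from -0.14 to 0.14 in the controls. Among cKO+/- mice it was -0.01 in Sample_1176, 0.08 in Sample_933 and Sample_938 and 0.12 in Sample_1189, all within the control range. It was above that range in Sample_1120, at 0.29, and in Sample_1433, at 0.38. Without Sample_1176, *Meg3* and *Usp29* were called beside *Snrpn*, in a fit that called 2.72% of all genes. Within the span of animal numbers, 4 of the 31 were higher and 0 lower at an unadjusted p under 0.05, when 668 of 14157 genes were past it in either direction. Without controls Sample_1129 and Sample_1170, 8 were higher and 0 lower, with 1475 genes past it.

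None of the relatives of *Dach2* passed the test. Of 12 dachshund, Eya and sine oculis homeobox genes 8 were tested, *Dach2* alone was called, and the median log2 fold change was -0.01. *Dach1*, its closest relative, lay at 4.87 to 9.14 CPM in controls and at 3.97 to 5.37 CPM in cKO+/- mice (-0.49 ± 0.14, adjusted p = 0.268 in edgeR). The 4 Eya cofactors, *Six4* and *Six5* had log2 fold changes between -0.24 and 0.41. Of 14 genes that encode POGZ and its partners, *Pogz* alone was called, and the other 13 lay between -0.13 and 0.07, among them the HP1 genes *Cbx1* (0.07 ± 0.05), *Cbx3* (-0.03 ± 0.06) and *Cbx5* (0.01 ± 0.04). None of 22 tested genes for H3K9, H4K20 and DNA methylation was called, with log2 fold changes from -0.15 to 0.20. Of the aldo-keto reductase genes of the Akr1c cluster, 3 of 10 were tested and none was called. Of 29 germline genes, which are silenced in the brain, 10 were tested and none was called (median log2 fold change 0.11).

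Within 5 Mb of *Pogz*, 113 of 241 genes were tested and none was called, and the median log2 fold change was 0.00, with 7 higher and 4 lower at an unadjusted p under 0.05, near the 5.57% and 5.66% of all genes. Synaptic gene lists showed small values: none of 18 ionotropic glutamate receptor genes, 35 genes of the excitatory postsynaptic density, 12 GABA-A receptor genes and 18 calcium channel genes was called, and the medians were -0.04, -0.01, -0.04 and -0.03. Of 54 tested risk genes for autism and intellectual disability, none was called, and the range was from -0.19 to 0.24. The log2 fold change was negative in 41 of them, with a median of -0.03, and in 7095 of all 14157 genes tested. At an unadjusted p under 0.05, 0 of the 54 were higher and 4 lower. None of 19 immediate early genes was called, with a median of 0.01. Among 22 tested genes of adult neurogenesis none was called. Without Sample_1176, in a fit that called 2.72% of all genes, *Nr4a2* (0.37) and *Fosl2* (0.38) of the immediate early genes were called higher, and of the neurogenesis genes *Hopx* (0.44) higher and *Prox1* (-0.54) lower. That fit also called *Homer3* (-0.29) of the postsynaptic density, *Cacna1h* (-0.30) of the calcium channels and *Mtmr11* (0.31) near *Pogz*. *Hopx*, a gene of neural stem cells and astrocytes, lay at 56.1 to 81.1 CPM in controls and at 86.9 to 96.2 CPM in cKO+/- mice, without overlap (0.44 ± 0.08, adjusted p = 0.145 in edgeR), whereas *Sox11* (-0.17 ± 0.05) and *Dcx* (0.28 ± 0.09), both of immature neurons, differed in sign. Of 13 listed genes of the mitochondrial genome, 0 were in the table used here.

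**Figure D5:**
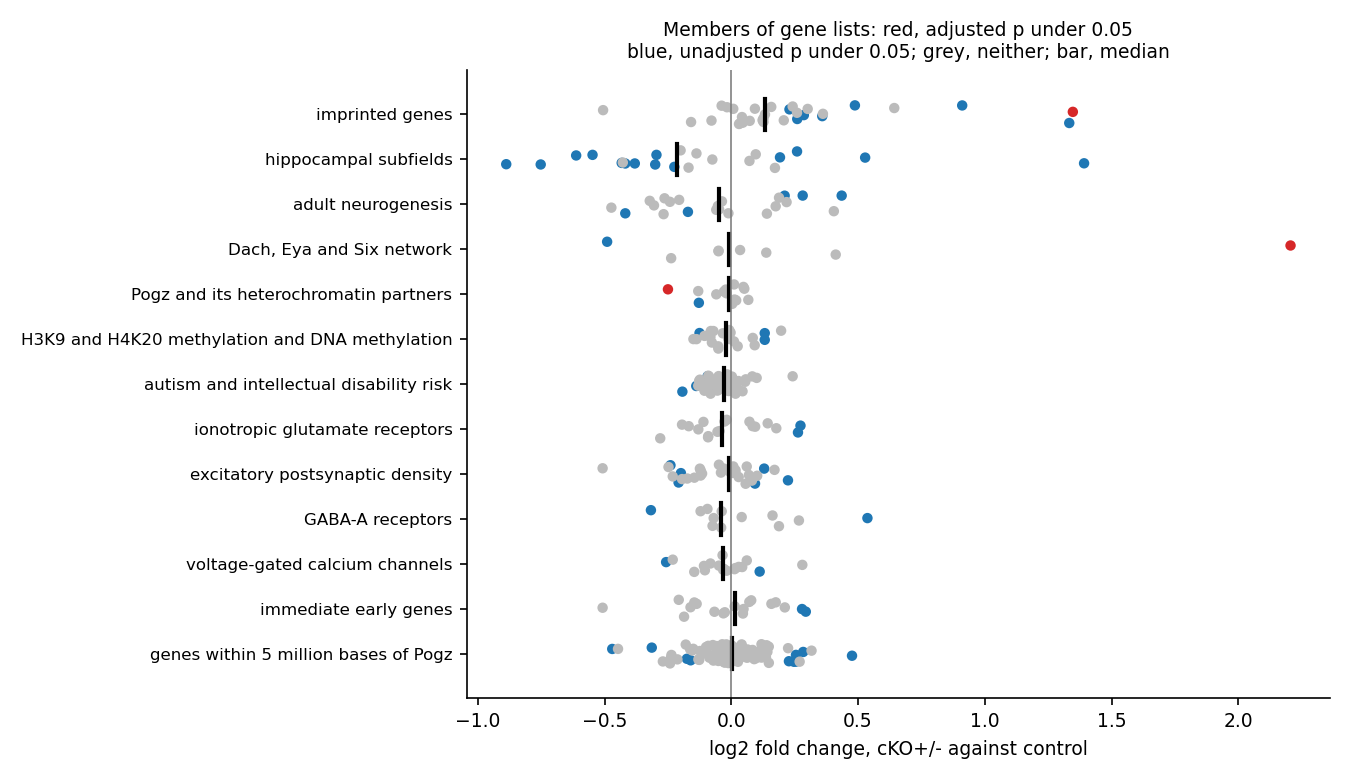
Log2 fold change, cKO+/- against control, of each tested member of 13 gene lists, with the median of each list as a bar. The 3 red points are *Snrpn*, *Dach2* and *Pogz*; the medians of imprinted genes (0.13) and hippocampal field genes (-0.21) lie farthest from 0.

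Cell type markers held no called gene in the fit of 12 libraries. Without Sample_1176, in a fit that called 2.72% of all genes, *Aqp4* (1 of 8 tested astrocyte markers) and *Prox1* (1 of 8 of excitatory neurons) were called. So were *Dcn* (1 of 8 of meninges and fibroblasts) and *Prkcd* (1 of 4 of thalamus and midbrain). No marker of the other lists was called in that fit. Of 8 excitatory neuron markers, 3 were lower and 0 higher at an unadjusted p under 0.05, against 5.66% lower and 5.57% higher over all genes tested. Their median log2 fold change was -0.14. The 4 tested choroid plexus markers had a median of -1.39, which became -0.87 without control Sample_1129 and 1.01 without controls Sample_1129 and Sample_1170. Among 8 astrocyte markers, *Aqp4* and *Gfap* lay higher (0.28 ± 0.07 for *Gfap*, an intermediate filament) while *Slc4a4* lay lower, and the summed level overlapped, at 4951 to 6780 CPM in controls and 5216 to 5682 CPM in cKO+/- mice. All 8 endothelial markers had positive log2 fold changes (0.00 to 0.45), as did all 6 of oligodendrocyte precursors (0.05 to 0.27), with summed levels of 133 to 155 against 115 to 193 CPM and of 318 to 397 against 341 to 426 CPM. Markers of microglia (325 to 436 and 341 to 397 CPM) and oligodendrocytes (3574 to 5718 and 3697 to 5887 CPM) overlapped. Of 4 tested markers of thalamus and midbrain, 2 had positive and 2 negative log2 fold changes, with a median of -0.01. The lowest was that of *Prkcd*, a protein kinase C gene abundant in thalamus, at -0.86, with 25.6 to 51.6 CPM in controls. The 8 markers of that list summed to 70.3 to 121 CPM in controls, with control Sample_1129 the highest and the next at 93.2 CPM. In cKO+/- mice they summed to 63.7 to 80.4 CPM. Their part in the results was not tested.

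The cKO+/- effect was compared between the hippocampus and the cerebellum of the 12 animals, taken as the same animals by their sample numbers. It differed in 8 of 13333 genes (0.06%; edgeR quasi-likelihood test of the tissue by genotype term, adjusted p under 0.05), and in 7 with the animal as a block, which left out *Ahcyl2* (adjusted p = 0.0753 in edgeR). None of the 3 genes called in the hippocampus was among them: *Dach2* had log2 fold changes of 2.21 in hippocampus and 1.94 in cerebellum (difference 0.26 ± 0.31, adjusted p = 0.759 in edgeR), *Snrpn* 1.35 and 1.08, and *Pogz* -0.25 and -0.35. In the cerebellum 48 genes were called (0.349%), *Dach2* (adjusted p = 0.00189 in edgeR) and *Aqp4* (0.64 ± 0.07, adjusted p = 0.000667) among them, but neither *Pogz* (adjusted p = 0.143) nor *Snrpn* (adjusted p = 0.0519). The 3 genes with the smallest p between tissues were *Igsf1*, an immunoglobulin superfamily member, *Cpxm2*, a carboxypeptidase-like gene, and *Kcnh3*, a potassium channel gene. *Cpxm2* had log2 fold changes of 0.22 in hippocampus and 1.89 in cerebellum. *Igsf1* lay at 7.58 to 13.8 CPM in control and 11.9 to 16.3 CPM in cKO+/- hippocampus, and at 2.69 to 3.86 and 14.7 to 30 CPM in cerebellum. *Kcnh3* lay at 121 to 141 and 116 to 134 CPM in hippocampus, and at 4.27 to 7.26 and 1.23 to 3.71 CPM in cerebellum. Of the 8, *Gfap* had a log2 fold change of 0.28 in hippocampus and 1.07 in cerebellum. The count between tissues was 69 without animal Sample_1176, 19 without Sample_1189, 5 without Sample_933 and 4 without Sample_938.

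The effect differed between males and females in 1 of 14157 genes (0.00706%), *Wfikkn2*, which encodes a secreted protein with protease inhibitor domains that binds growth factors of the TGF-beta superfamily. Female controls held 3.67, 3.09 and 3.52 CPM and female cKO+/- mice 1.35, 0.767 and 0.909 CPM. Male controls held 0.68, 1.04 and 0.775 CPM and male cKO+/- mice 2.35, 3.64 and 2.37 CPM. The 3 animals of each sex and genotype stayed together, with the order of the genotypes opposite in the sexes (difference of log2 fold changes 3.50 ± 0.36, adjusted p = 0.00431 in edgeR). Without control Sample_1172, 53 genes were called. Of the cKO+/- animals, the males Sample_933 and Sample_1433 and the female Sample_938 are numbered outside the control span. The tests between tissues and between sexes were not run within that span. For *Pogz*, *Dach2* and *Snrpn* the log2 fold changes were -0.24, 1.78 and 1.15 in females and -0.26, 2.71 and 1.56 in males, and none of these differences passed (adjusted p at least 0.647 in edgeR).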

How the data were processed

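The authors dissected hippocampus and cerebellum, and the same 18 sample numbers occur in both tissues. They made poly(A) libraries, sequenced paired-end reads and aligned them with STAR (version 250a per the submitters' processing notes). The deposited values are whole-number read counts per gene, not normalized. The build named is mm9, but the coordinates in the tables match GRCm38; the annotation, use of strand and treatment of reads with several matches are not given in the sources used here. The 2 gene names that read as dates occur on 2 chromosomes each and were kept apart.

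CPM values use TMM factors of the 12 libraries, and cKO-/- libraries were put on the same scale. Genes above 1 CPM in at least 6 of 12 libraries were tested with edgeR 4.0.16 (R 4.3.3; glmQLFit with legacy=TRUE, glmQLFTest), with sex and genotype, and Benjamini-Hochberg adjustment at 0.05. SE is the log2 fold change divided by the root of its F. The fits were tested on simulated counts. No pair of the 12 libraries agreed within sampling noise (at least 5.42 chi-square per gene over 66 pairs). The animal number was taken to pair the tissues. Between the hippocampal and cerebellar library of an animal, deviations from the genotype means correlated at a median r of 0.322, with 11 of 12 animals above 0.1 and the lowest at 0.0504. In 6 of 12 animals the hippocampal library correlated best with the cerebellar library of the same number. Sex was not removed from these deviations. Each library is 1 animal. The shallowest library held 23303484 counts, and depth limits the low genes. cKO-/- animal Sample_1160, with *Prox1* at 10.1 CPM against 59.9 to 72.8 CPM in the other cKO-/- mice, was kept out of cKO-/- ranges.

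Named genes were *Pogz*, *Dach2*, *Akr1c13*, *Gm364*, the 6 with the smallest p in each direction, called list members and up to 3 genes of the tissue and sex tests; others, such as those called without animal Sample_1176, were chosen after their values were seen. Members, lists and tests were chosen with earlier results of these data known. Alternatives were DESeq2 1.42.0, other size factors, no low-count filter, other dispersion fits, no sex term, thinned libraries, cKO-/- libraries in the fit, animal number and each animal left out; leaving out 2 libraries together was added after seeing the data.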

Additional observations from a re-analysis of the deposited data

Results flagged for a closer look

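Of 66 groups of 6 libraries checked, over 33 quantities, 5 held a library far from the other 5 by Dixon's criterion, which chance alone reaches in about 1 group in 20. Control Sample_1129 had a summed level of cerebellar markers of 455 CPM, with the nearest control at 184 CPM. Control Sample_1170 had a summed level of interneuron markers of 914 CPM, with the nearest at 808 CPM. cKO+/- animal Sample_1189 had a summed level of choroid plexus markers of 664 CPM, with the nearest at 154 CPM. *Ifitm1* was at 0.742 CPM in control Sample_1192, below the next at 1.15 CPM, and *Kcnh3* at 116 CPM in cKO+/- animal Sample_1433, below the next at 127 CPM.

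The effect of cKO+/- differed between hippocampus and cerebellum by the tested tissue by genotype term in 8 genes. As the hippocampal minus the cerebellar log2 fold change, the difference was -2.18 for *Igsf1*, -1.67 for *Cpxm2*, 1.33 for *Kcnh3*, -0.80 for *Gfap*, -1.46 for *Npnt*, -1.38 for *Tlr4*, -0.64 for *Ahcyl2* and -1.01 for *Epha5*. *Ahcyl2* did not pass with the animal as a block (adjusted p = 0.0753 in edgeR). *Npnt*, *Ahcyl2* and *Epha5* had a negative value in hippocampus and a positive one in cerebellum. *Wfikkn2* differed between the sexes, with a male minus female difference of 3.50 in the log2 fold change.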

How the results depend on the processing

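*Dach2* kept its direction and stayed past the threshold in all 25 other fits, with log2 fold changes from 2.12 to 2.40 when 1 animal was left out and from 2.09 to 2.28 under the other settings. *Snrpn* did so in 23 of 25. *Pogz* kept its direction in all 25, from -0.27 to -0.24 with 1 animal left out, but lost its call with 18 hippocampal libraries in the fit (-0.25), within numbers Sample_1120 to Sample_1219 (-0.24), with a covariate for animals outside that span (-0.24) and with controls Sample_1129 and Sample_1170 left out (-0.25). The count of 3 genes became 128 with DESeq2, 1 within the span, 1 with the covariate, 5 (*Igf2*, *Dach2*, *Igfbp2*, *Aqp4* and *Snrpn*) without controls Sample_1129 and Sample_1170, 339 without control Sample_1129 and cKO+/- Sample_1176, and from 2 to 385 with 1 animal left out. Genes with all cKO+/- libraries on one side of all controls numbered 73, 351 within the span, and from 82 to 316 with 1 animal left out. The count between tissues, 8, became 65 with DESeq2 and 20 without a low-count filter, and from 4 to 69 with 1 animal left out; with the animal as a replicate block it was 7. The count between sexes, 1, became 29 with DESeq2, 2 without the filter and from 1 to 53 with 1 animal left out. The cause of these changes was not tested. The other 9 genes whose fold changes were refitted kept their direction in all 25 fits. Since 3 cKO+/- animals within the span were compared with 6 controls, those fits had fewer samples.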
